A study of Mus musculus with 6 samples.

Results

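The 4 mouse Hox clusters were examined in Hi-C correlation matrices of C2C12 cells, through the 500 kb bins that hold the transcription start sites (TSS) of 38 listed Hox genes, out of 21217 protein-coding genes in bins with data. The 38 genes fell in 5 bins of the 4727 autosomal bins with data in every condition. *Hoxd13* to *Hoxd1* (9 genes) lay in chr2:74500001-75000000, the HoxA cluster up to *Hoxa13* (10 genes) in chr6:52000001-52500000, and *Hoxb13* to *Hoxb1* (10 genes) in chr11:96000001-96500000. A bin border divided the HoxC cluster, with 8 genes from *Hoxc13* to *Hoxc5* in chr15:102500001-103000000, called here the *Hoxc13* side, and *Hoxc4* alone in chr15:103000001-103500000. The gene records of *Hoxc6* and *Hoxc5* begin on the *Hoxc13* side, whereas their first protein-coding transcripts begin in the *Hoxc4* bin. All coordinates are mm10 (GRCm38).

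C2C12 is an established mouse myoblast line from thigh muscle of the C3H strain that fuses into multinucleated myotubes when serum is reduced. Myoblasts were proliferating, sub-confluent cultures, myotubes were harvested at day 3 of differentiation without AraC, and AraC-treated myotubes were harvested at day 7 after exposure from day 3 to 10 µg/ml of AraC, a cytidine analogue that kills dividing cells. Values of this last group are given as those after AraC. The day 3 cultures still held undifferentiated myoblasts, so that a shift within myotubes and a shift in the share of myotubes cannot be told apart, and day of harvest and AraC cannot be told apart either. The 2 replicates of each condition had been pooled before deposit, leaving 1 matrix per condition. No difference below has a replicate error or a test, and the 3 comparisons between conditions share their matrices.

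Hox genes encode homeodomain transcription factors that set positional identity along the body axis and in the limb. The clusters descend from 1 ancestral cluster, and genes with the same number are paralogues. Their order along the chromosome follows the order in which they are used along the axis, Polycomb and Trithorax group proteins keep them silent or active, and the HoxD cluster lies between gene deserts that hold limb enhancers. In Hi-C, gene-rich, transcribed chromatin (compartment A) and gene-poor, repressed chromatin (compartment B) each contact their own kind. The deposited value for a pair of bins is a correlation coefficient between their contact profiles, running from -1 to 1. The first principal component (PC1) of the coefficients within a chromosome was oriented so that values above 0 stand for A and values below 0 for B.

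The clusters also carry microRNA genes, shown because members of one seed family recur in different clusters and share the values of those bins. The mature sequences below are from RefSeq (GRCm38.p6), 5′ to 3′, with the seed, bases 2 to 8, in capitals.
mmu-miR-10a-5p (HoxB bin, chr11:96317186-96317208, plus strand): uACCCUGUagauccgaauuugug
mmu-miR-10b-5p (HoxD bin, chr2:74726074-74726096, plus strand): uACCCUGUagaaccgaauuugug
mmu-miR-196a-5p (HoxB bin, chr11:96265187-96265208, and Hoxc13 side of HoxC, chr15:102973365-102973386, plus strand): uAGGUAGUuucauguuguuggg
mmu-miR-196b-5p (HoxA bin, chr6:52230129-52230150, minus strand): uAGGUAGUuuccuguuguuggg
The miR-10 pair differed by U12A and the miR-196 pair by A12C, counted from the 5′ end of the sequence named first. Outside these pairs, neither seed occurred among the 1679 mature miRNA names of the table. The miR-10 seed thus lay in the HoxB and HoxD bins and the miR-196 seed in the HoxA, HoxB and HoxC bins.

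The Hox bins stood apart from most of the genome in sequence. The clusters themselves spanned 96.8 kb (HoxD), 98.5 kb (HoxA), 116 kb (HoxC) and 174 kb (HoxB), or 19.4% to 34.8% of the length of a bin, so that each value below also covers other genes. The bins held 12 to 18 protein-coding TSS, against a median of 2, and 10.5 to 15.7 CpG per kb, against a median of 8.13. HindIII, the enzyme used to cut the chromatin, had 132 to 172 sites per Hox bin, against a median of 162. HoxD was the Hox bin with the lowest GC content, 42.1%, above 54.5% of autosomal bins, although its CpG density of 12.8 per kb was above 90.1% of them. HoxA and HoxB had 45.0% and 46.8% GC.

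Promoters were available from RefSeq for 22 of the 38 genes, with 24 entries of 300 bases from 250 before to 50 after the TSS. The dinucleotide CG, which reads the same on both strands, occurred 4 to 45 times in them, with a median of 14.5, against 7 over all 32851 entries, 94.6% of which held at least 1. HoxA and HoxD genes gave 10 of the 24 entries each, so the median describes mainly these clusters and hardly HoxB and HoxC. *Hoxa13* and *Hoxd13*, paralogues that pattern the distal limb, are printed because they come from the HoxA and HoxD bins, whose PC1 values differed between conditions in opposite directions, as given below. CG is in capitals.
*Hoxa13* (chr6:52260831-52261130, minus strand, 45 CG): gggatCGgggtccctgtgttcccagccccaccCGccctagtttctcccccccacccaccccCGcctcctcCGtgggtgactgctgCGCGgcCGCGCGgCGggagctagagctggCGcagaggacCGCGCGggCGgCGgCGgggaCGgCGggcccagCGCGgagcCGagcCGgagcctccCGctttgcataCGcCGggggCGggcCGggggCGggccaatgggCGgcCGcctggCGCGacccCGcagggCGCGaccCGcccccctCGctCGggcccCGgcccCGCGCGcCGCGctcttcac
*Hoxd13* (chr2:74667975-74668274, plus strand, 37 CG): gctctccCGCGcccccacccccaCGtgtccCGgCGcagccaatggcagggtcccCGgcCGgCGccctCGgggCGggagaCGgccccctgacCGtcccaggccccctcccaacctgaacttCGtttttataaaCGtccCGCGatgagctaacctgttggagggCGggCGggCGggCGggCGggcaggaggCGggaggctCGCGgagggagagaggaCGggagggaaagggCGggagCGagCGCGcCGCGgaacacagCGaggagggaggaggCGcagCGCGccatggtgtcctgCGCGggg
Both lay in the upper tail of CG counts, above 98.1% and 94.4% of all entries. The *Hoxd13* promoter lay in a bin that was in B in myoblasts, and the *Hoxa13* promoter in a bin that was in A in every condition.

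In myoblasts, 4 of the 5 Hox bins were in A, against 38.3% of autosomal bins. These bins held 29 of the 38 genes, against 59.8% of all protein-coding genes in A. The same 4 of 5 bins were in A in myotubes (36.5% of all bins), and 5 of 5 after AraC (35.5%). The exception was HoxD. All 5 bins were gene-dense, however, and most gene-dense bins were in A. Of the 627 autosomal bins with at least 10 protein-coding TSS, only 31.9% were in B in myoblasts, 33.2% in myotubes and 33.3% after AraC. The position of the Hox bins in A was thus not particular to them. PC1 spread more widely in the later conditions, with an SD over autosomal bins of 0.859 in myoblasts, 1.61 in myotubes and 1.36 after AraC, so PC1 divided by that SD (scaled PC1) is given beside PC1.

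**Figure D1:**
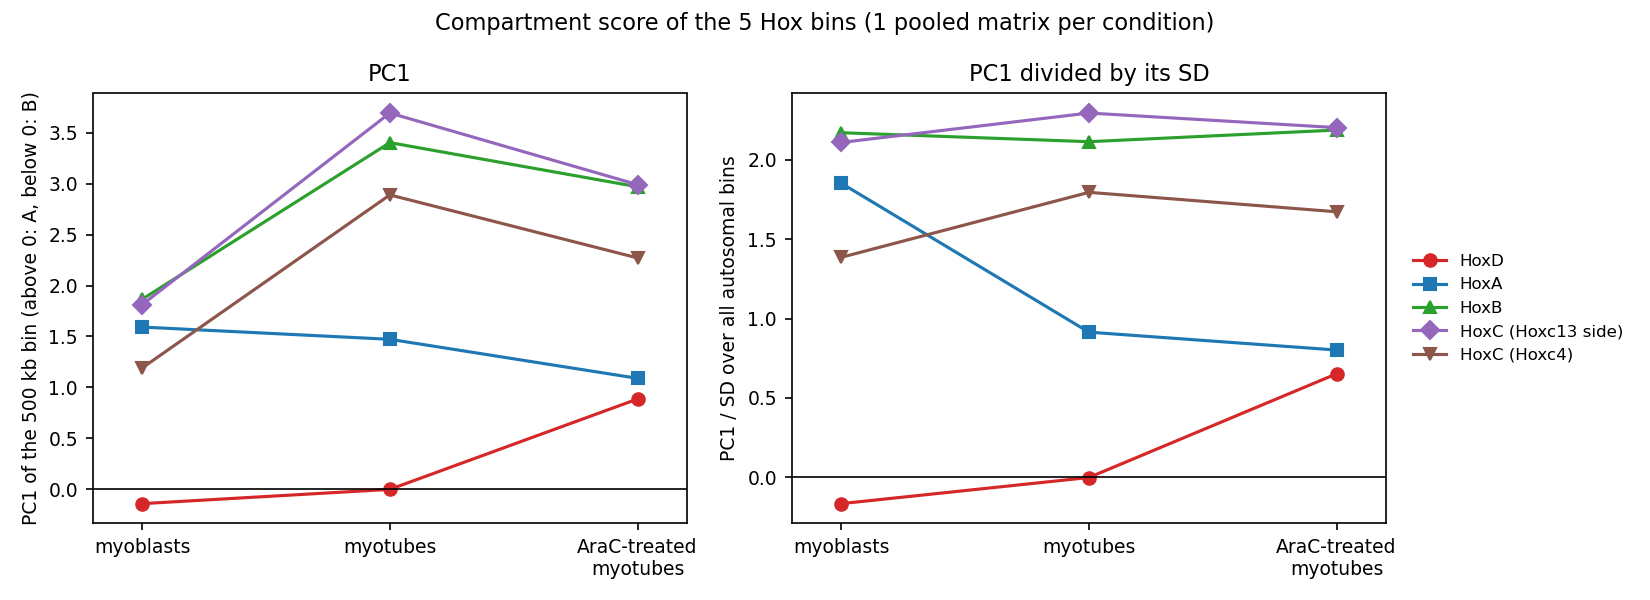
PC1 of the 5 Hox bins (left) and PC1 divided by its SD over autosomal bins (right) in the 3 conditions, 1 point per pooled matrix, joined by lines. HoxD runs from -0.143 through about 0 to 0.885, HoxA is lower in each later condition on both scales, and HoxB and both HoxC bins stay well above 0.

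HoxD had a PC1 of -0.143 in myoblasts, -0.00262 in myotubes and 0.885 after AraC. The bin was therefore slightly on the B side, then at the border, then in A. The middle step depended on centring of the matrix columns, which was used throughout. Without centring the bin had a PC1 of -0.278, -0.364 and 0.610, so that in myotubes it was in B and below its value in myoblasts. Between myoblasts and AraC-treated myotubes it was the 1 of 5 Hox bins that went from B to A, against 3.72% of autosomal bins, and likewise between untreated and AraC-treated myotubes, against 2.05%. Between myoblasts and myotubes no Hox bin did so (2.77% of all bins). The call in myotubes was not settled: with odd-numbered partner bins alone PC1 was 0.00784 and with even-numbered ones -0.0115. The values in the outer conditions kept their side, at -0.0913 and -0.111 in myoblasts and 0.607 and 0.644 after AraC. In scaled PC1 the difference between AraC-treated myotubes and myotubes was 0.654, and 36 of the 4727 bins had a larger increase. Over the SD of its chromosome 85 bins (1.80%) had a larger one, and by rank on the chromosome 386 bins (8.17%). A position in B was not unusual for a bin with so many genes. Of 627 autosomal bins with at least 10 protein-coding TSS, 31.9% were in B in myoblasts. That is less often than over all autosomal bins, of which 38.3% were in A. Of the 627 bins 6 (0.957%), HoxD among them, were in B in myoblasts and myotubes and in A after AraC. Over all autosomal bins 73 (1.54%) had this course.

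HoxA behaved differently. Its PC1 was 1.59 in myoblasts, 1.47 in myotubes and 1.09 after AraC, so it stayed in A. On that scale it did not stand out between myoblasts and myotubes, where its difference was -0.12 and 60.7% of autosomal bins had a larger decrease. As the spread of PC1 was wider in the later conditions, its scaled value went from 1.85 to 0.914 and 0.802. From myoblasts to myotubes the scaled difference was -0.939, and 5 of the 4727 autosomal bins had a larger decrease. From myoblasts to AraC-treated myotubes it was -1.05, and 6 bins had a larger decrease. With PC1 divided by the SD of its own chromosome the differences were -0.946 and -1.10, with 11 and 9 bins beyond it. The share of chromosome 6 bins with a lower PC1 went from 93.8% in myoblasts to 81.7% and 80.0%. By rank the difference was less extreme, since 7.24% and 9.39% of autosomal bins lost more places.

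HoxB and HoxC were among the firm A bins. HoxB had a PC1 of 1.87, 3.40 and 2.97 in myoblasts, myotubes and AraC-treated myotubes, and the *Hoxc13* side of HoxC had 1.81, 3.70 and 2.99. Scaled, these were nearly level, between 2.12 and 2.19 for HoxB and between 2.11 and 2.30 for the *Hoxc13* side. The *Hoxc4* bin had PC1 values of 1.19, 2.89 and 2.27, and its scaled PC1 was 1.39, 1.80 and 1.67. It was thus lower than its neighbour with the other HoxC genes in every condition. Of the 5 Hox bins, 3 had a higher scaled PC1 in myotubes than in myoblasts (47.5% of all bins), 4 had a higher one after AraC than in myoblasts (46.9%), and 2 a higher one after AraC than in myotubes (47.0%). On PC1 itself these counts were 4, 4 and 1. They differed from the scaled counts through HoxB alone, whose scaled differences were -0.0566 between myoblasts and myotubes and 0.0734 between untreated and AraC-treated myotubes, on the other side of 0 from those of PC1. HoxD was higher in the later condition of all 3 comparisons on both scales, and HoxA lower. For HoxD between myoblasts and myotubes this did not hold without centring of the columns.

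The surroundings of each cluster were read from the neighbouring bins. HoxD lay in a trough. The directly adjacent bins hold no protein-coding TSS and correspond to the gene deserts of the locus. The left one, chr2:74000001-74500000 on the *Hoxd13* side, had PC1 values of -0.271, -0.332 and 0.759 in myoblasts, myotubes and AraC-treated myotubes. The right one, chr2:75000001-75500000 on the *Hoxd1* side, had -0.314, -0.517 and 0.466. The cluster and both deserts, 3 adjacent bins, were thus below 0 in the first conditions, HoxD only just so in myotubes, and in A after AraC. Beyond them the bin with *Wipf1*, *Chrna1*, the gene for the muscle acetylcholine receptor alpha subunit, and *Atf2* was in A throughout, at 0.903, 1.77 and 1.88. On the other side the bin with *Hnrnpa3* and *Nfe2l2* was also in A throughout, at 0.453, 1.24 and 1.37. Within 3 Mb, 6 of 12 neighbours were in A in myoblasts, 9 in myotubes and 11 after AraC.

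The bin with *Ttn*, which encodes the sarcomere protein titin, lies 2 Mb from HoxD and had a different course. Its PC1 was -0.130 in myoblasts, next to that of HoxD, but 2.30 already in myotubes and 2.18 after AraC. The coefficient between the HoxD and *Ttn* bins was 0.0227, 0.0306 and 0.0663, at rank 141 of 351, 137 of 352 and 40 of 353 among the bins of chromosome 2. The median over all autosomal pairs at this distance was 0.0395, 0.0630 and 0.0544. HoxD and *Ttn* were thus below the usual coefficient in the first conditions and above it after AraC.

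**Figure D2:**
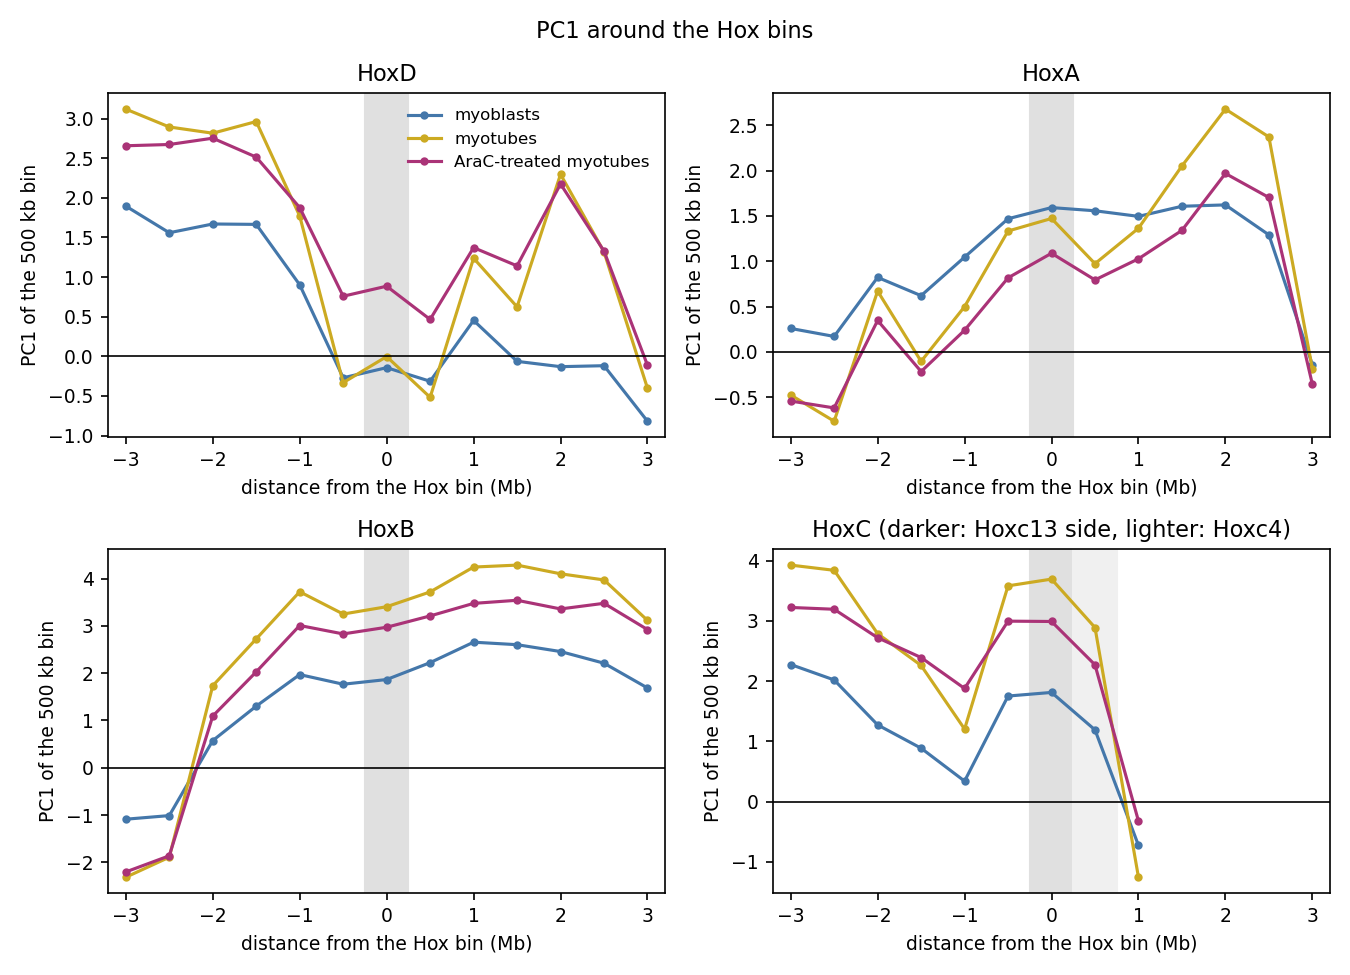
PC1 of the bins within 3 Mb of each cluster against distance from the Hox bin (grey) in myoblasts, myotubes and AraC-treated myotubes. HoxD and both adjacent bins lie below or at 0 in the first conditions and above 0 after AraC, whereas HoxA sits on a slope, HoxB on a plateau and HoxC at the edge of an A region near the chromosome end.

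HoxA shared its lower scaled PC1 with its region. The adjacent bins, with *Snx10* on the left and with *Hibadh* and *Tax1bp1* on the right, the *Hoxa13* side, had PC1 values of 1.47, 1.33 and 0.817 and of 1.56, 0.974 and 0.794. Of the 12 neighbours within 3 Mb, 11 had a lower scaled PC1 in myotubes than in myoblasts, and 12 of 12 a lower one after AraC. Over all autosomal bins 47.5% and 46.9% had a higher one in these comparisons. Of the 12 neighbours 3, all to the left of the cluster, went from A to B between myoblasts and myotubes. Counted over protein-coding genes, which is not the same unit as bins, the share was 5.13%. These 3 bins held *Gpnmb* and *Igf2bp3*, *Npy*, which encodes neuropeptide Y, and *Cycs*, the somatic cytochrome c.

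HoxB lay inside a long stretch of A. The adjacent bins, one with *Ngfr*, *Phb* and *Zfp652*, and one with *Cbx1*, *Nfe2l1* and *Sp2*, had PC1 values of 1.77, 3.25 and 2.83 and of 2.22, 3.72 and 3.21. Of the 12 neighbours 10 were in A in every condition and none changed compartment. HoxC ended an A region. The adjacent bin on the *Hoxc13* side, with *Krt8*, *Krt18*, *Rarg* and *Sp7*, had 1.75, 3.58 and 3.00, while the bin beyond *Hoxc4*, with *Pde1b* and *Ppp1r1a*, was in B at -0.728, -1.26 and -0.323. The HoxC bins were correlated with each other at 0.246, 0.428 and 0.345, against a median of 0.0608, 0.0979 and 0.0812 for all adjacent autosomal bins. The *Hoxc4* bin had coefficients of -0.00479, -0.178 and 0.00451 with its B neighbour.

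HoxD, by contrast, was weakly tied even to its adjacent bins. Its coefficient with the left desert was 0.00854 in myoblasts, 0.0451 in myotubes and 0.109 after AraC. With the right desert it was 0.0297, 0.050 and 0.137. These were below the median of adjacent bins in myoblasts and myotubes and above it after AraC. HoxA went the other way with both neighbours, from 0.143 to 0.0551 and 0.0323 with the *Snx10* bin, and from 0.185 to 0.0317 and 0.0514 with the *Hibadh* bin.

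The whole profile of a bin along its own chromosome was then compared between conditions by Pearson's r over bins, which describes shape and not level. The coefficients of one profile share a library and are not independent, so r is given without a test. For HoxD r was 0.479 for myoblasts against myotubes, -0.368 for myoblasts against AraC-treated myotubes and -0.0704 for untreated against AraC-treated myotubes. Profiles with r below 0 made up 3.28%, 5.80% and 1.16% of autosomal bins, and 0, 1 and 1 of the 5 Hox bins. Along chromosome 2 the HoxD profile after AraC thus ran partly opposite to that in myoblasts, with 1.31% of autosomal bins at a lower r. This was not particular to HoxD. In the same comparison r was -0.356 for its left desert and -0.514 for the *Ttn* bin, and -0.615 for the *Cycs* bin near HoxA. Other neighbours of HoxD kept a positive r, such as 0.893 for the *Wipf1* bin and 0.670 for the *Hnrnpa3* bin. Over bins of other autosomes r for HoxD was 0.404, -0.0398 and 0.0725, so that the sign of the last comparison was not kept. HoxA had r of 0.896, 0.847 and 0.878, close to the autosomal median in the comparisons with myoblasts (0.877 and 0.839) and below it for untreated against AraC-treated myotubes (0.947). HoxB, at 0.976, 0.956 and 0.987, the *Hoxc13* side, at 0.965, 0.94 and 0.980, and the *Hoxc4* bin, at 0.95, 0.921 and 0.971, all exceeded the median in each comparison.

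Coefficients with bins of other chromosomes, which do not enter PC1, gave a similar order. Each coefficient compares whole contact profiles, so they may share contacts with PC1 and are not separate evidence. A component computed from them alone was -0.493, -0.386 and 2.14 for HoxD and 5.14, 5.13 and 3.39 for HoxA, on a scale of its own. Partners on other autosomes were divided by their own scaled PC1. In myoblasts the median coefficient of HoxD ran from 0.0175 with the strongest B class (below -1) to -0.0101 with the strongest A class (above 2). In myotubes it ran from 0.0304 to -0.0230. After AraC the order was inverted, from -0.0129 to 0.0587. The interquartile ranges of the strongest A and B classes did not overlap in any condition. For HoxA the strongest A class had medians of 0.195, 0.12 and 0.0652, and the strongest B class -0.0624, -0.0449 and -0.0309. Its preference for A kept its direction and became shallower. HoxB and the *Hoxc13* side were steepest in myotubes, with 0.401 and 0.465 for the strongest A class.

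**Figure D3:**
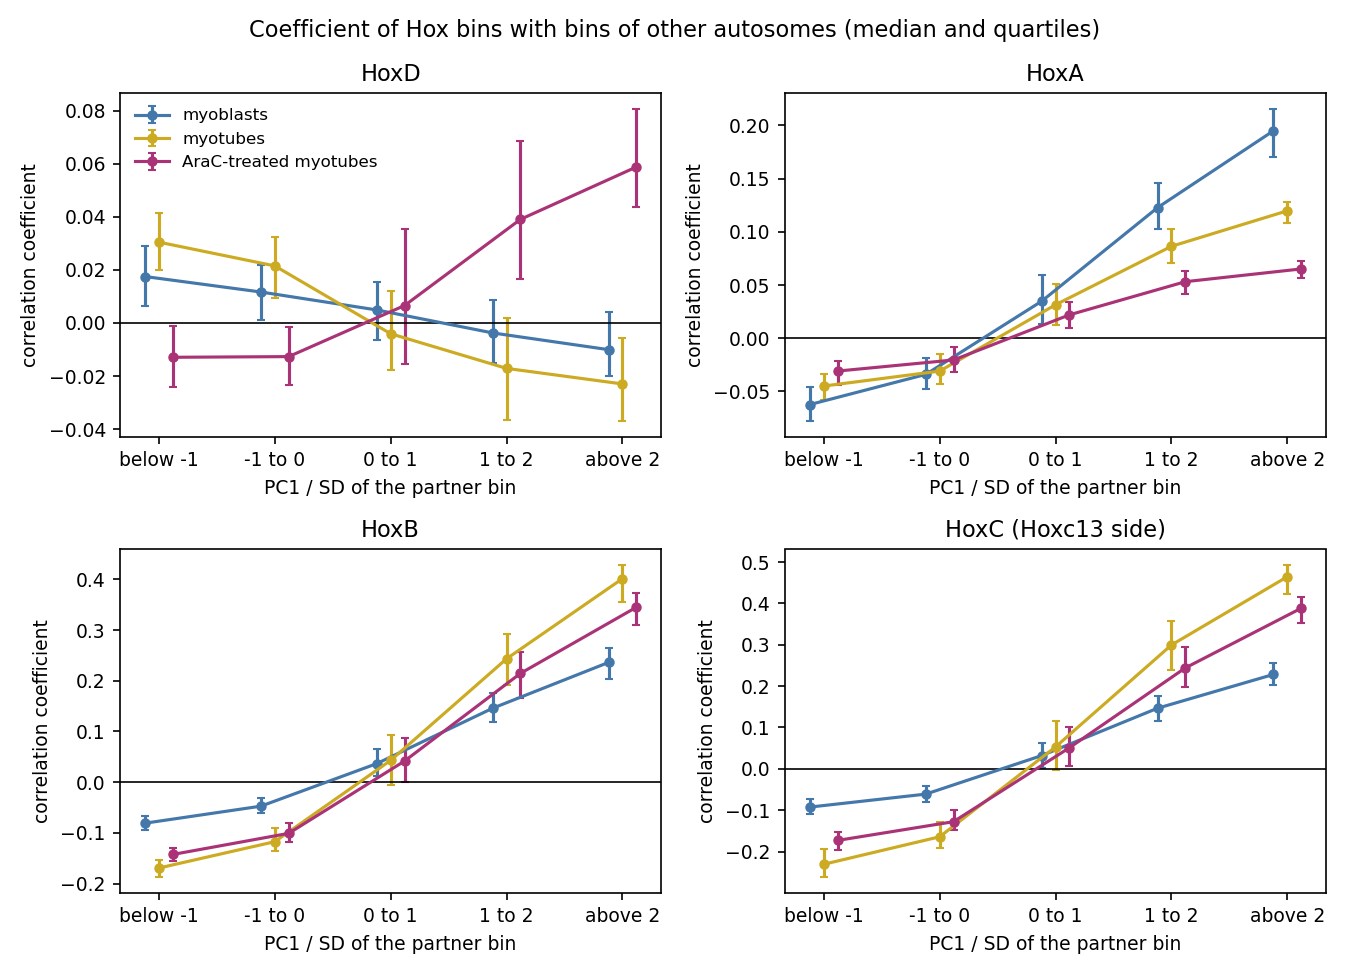
Median coefficient (points) and quartiles (bars) of the HoxD, HoxA, HoxB and HoxC (*Hoxc13* side) bins with bins of other autosomes, grouped by the partner's PC1 over its SD. The HoxD line slopes down in myoblasts and myotubes and up after AraC, and the HoxA line flattens from myoblasts to AraC-treated myotubes.

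The coefficients among the clusters themselves were read over the 9 pairs of Hox bins on different chromosomes. Their mean was 0.0755 ± 0.0788 (SD over pairs) in myoblasts, 0.102 ± 0.155 in myotubes and 0.111 ± 0.112 after AraC. The pairs share bins, so this spread is no sampling error. The mean rested on which bins were taken: with each bin replaced by the next higher one it was 0.0250, 0.0181 and 0.0540, and without HoxB 0.0427, 0.0200 and 0.0418. Over all autosomes the mean was 0.00526, 0.00743 and 0.00306, and over pairs of A bins 0.0490, 0.0888 and 0.0824. A coefficient above 0 was seen in 7 of 9 Hox pairs in myoblasts (57.1% of all pairs of bins on different autosomes), 7 of 9 in myotubes (58.4%) and 9 of 9 after AraC (56.2%). The 5 pairs without HoxD averaged 0.137, 0.20 and 0.157, and the 4 pairs with HoxD -0.00109, -0.0212 and 0.0532. In each condition the pairs with HoxD thus had the lower mean.

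HoxB and HoxC were the closest pair in myotubes and after AraC, and in myoblasts they were level with HoxA and HoxB. The coefficient of HoxB with the *Hoxc13* side was 0.175 in myoblasts, 0.408 in myotubes and 0.344 after AraC, above 97.2%, 97.9% and 97.8% of all pairs of bins between chromosomes 11 and 15. Among pairs in which both bins were in A, it was above 81.3%, 87.6% and 86.4%. Many other pairs of A bins were thus as strongly tied, and the *Hoxc13* side was at rank 21, 17 and 19 of 202 chromosome 15 bins for HoxB. With the *Hoxc4* bin the coefficient was lower, at 0.111, 0.272 and 0.249.

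HoxA had lower coefficients with HoxB and the *Hoxc13* side in each later condition. Its coefficient with HoxB was 0.175 in myoblasts, 0.101 in myotubes and 0.0803 after AraC. In multiples of the SD of all coefficients between autosomes (0.0446, 0.0889 and 0.0731) these were 3.93, 1.13 and 1.10. The pair was above 84.9% of pairs of A bins in myoblasts and above 48.0% and 41.5% later. With the *Hoxc13* side HoxA had 0.139, 0.114 and 0.0610, and with the *Hoxc4* bin 0.0830, 0.108 and 0.0527, the latter being the one HoxA pair with a higher raw value in myotubes than in myoblasts.

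HoxD had its highest coefficients with HoxB and HoxC after AraC. With HoxB its coefficient was 0.00438 in myoblasts, 0.0365 in myotubes and 0.118 after AraC. In the last, HoxB ranked 5 of 237 chromosome 11 bins for HoxD, having ranked 108 in myoblasts and 28 in myotubes. In the other direction HoxD ranked 77 of 354 chromosome 2 bins for HoxB after AraC. Their coefficient was then above 51.5% of pairs in which both bins were in A, near the middle of such pairs. Toward HoxC the course was different. The coefficients with the *Hoxc13* side were -0.0142, -0.0631 and 0.0395 and those with *Hoxc4* -0.0160, -0.0654 and 0.0442. In myotubes these bins ranked 201 and 202 of 202 on chromosome 15, the bottom of the chromosome, and after AraC 54 and 49. After AraC their coefficients with HoxD were above 34.3% and 37.1% of pairs of A bins. With HoxA, whose genes also act in the limb, HoxD had 0.0215, 0.00728 and 0.0116, near 0 throughout.

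**Figure D4:**
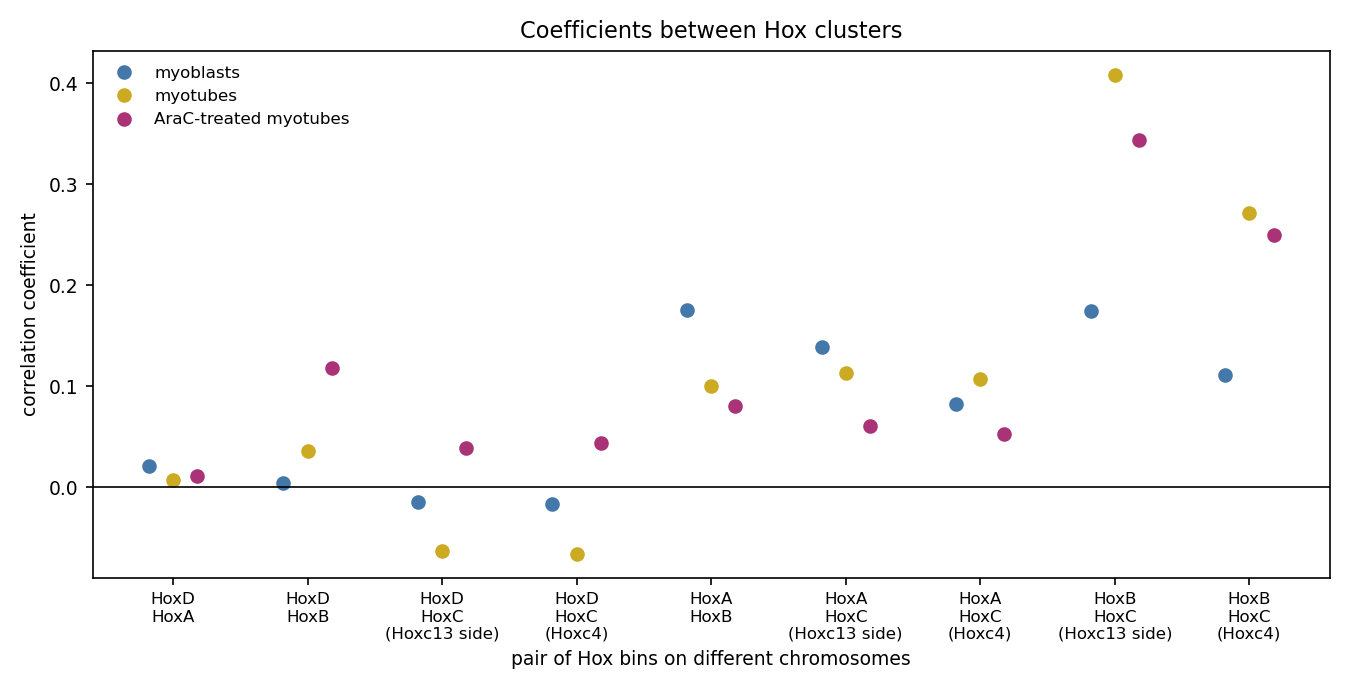
Correlation coefficient of each of the 9 pairs of Hox bins on different chromosomes in the 3 conditions, 1 point per pooled matrix. Pairs of HoxB with HoxC are highest in myotubes, pairs of HoxA with HoxB and with the *Hoxc13* side are highest in myoblasts, HoxA with *Hoxc4* is highest in myotubes, and pairs of HoxD with HoxB and HoxC are highest after AraC.

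The strongest partners of HoxD on other chromosomes were not Hox bins. The bin with *Rbfox3*, an RNA-binding protein of neurons known as NeuN, and *Enpp7*, at chr11:118500001-119000000, was among the first 3 in every condition, with coefficients of 0.0669, 0.105 and 0.214. The bin with type II keratin genes such as *Krt5* and *Krt1*, at chr15:101500001-102000000, was at 0.0205 in myoblasts and ranked second on all other autosomes in myotubes and after AraC, at 0.111 and 0.206. It lies 1.0 Mb from the *Hoxc13* side. On chromosome 15 the keratin bin was thus the highest and the HoxC bins the lowest partners of HoxD in myotubes. Partners on chromosome 4 were the bin with *Igsf21* (0.131 in myotubes) and the bin with the secreted phospholipases *Pla2g2d*, *Pla2g2e* and *Pla2g5* (0.197 after AraC). In myoblasts the next were bins with *Fstl4* (0.0655) and with *Ahsg*, *Fetub* and *Hrg* (0.0640), and the former was itself in B.

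The 3 strongest partners of HoxA, HoxB and HoxC in each condition held 5 to 30 protein-coding TSS. For HoxA the first in myoblasts was a chromosome 2 bin with *Fnbp1* and *Ass1*, at 0.267, which came to 0.133 in myotubes and 0.0565 after AraC. Another chromosome 2 bin, with *Garnl3* and *Angptl2*, was first after AraC at 0.105. HoxB had the bins with *Pdgfb* and *Atf4* and with *Rac2* and *Lgals1* on chromosome 15 at 0.493 and 0.485 in myotubes and at 0.433 and 0.470 after AraC. The *Hoxc13* side had the bin with *Dot1l* and *Amh* on chromosome 10 first in myoblasts (0.315) and myotubes (0.566), and the bin with *Ppard* and *Tead3* on chromosome 17 first after AraC (0.484). The *Hoxc4* bin had the bin with *Clstn1* and *Pik3cd* on chromosome 4 (0.211), the bin with *Lrp5* and *Kmt5b* on chromosome 19 (0.410) and the bin with *Eng* and *Cdk9* on chromosome 2 (0.328) first in turn. Each of these partners was in A in the condition in which it ranked first.

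The genes that work with or on Hox genes were placed in the same way, by the bin of their TSS. Among the genes for the TALE cofactors that bind DNA together with HOX proteins, bins lay in both compartments. The bin of *Meis1* was deep in B, at -1.35, -2.74 and -2.48, and that of *Pbx3* firmly in A, at 1.66, 3.65 and 3.36. These had the largest decrease and increase of PC1 in the list.

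Of all protein-coding genes, 59.8% were in A in myoblasts, 58.5% in myotubes and 57.5% after AraC. Of 26 Polycomb genes 23, 22 and 22 were in A, in bins that also held other genes. *Bmi1*, a core subunit of Polycomb repressive complex PRC1, had 0.276, -0.232 and -0.300, and *Phc3*, another PRC1 subunit, 0.264, -0.0694 and -0.0715, so that both went from A to B with values near 0, as did 5.13% of all protein-coding genes between myoblasts and myotubes. *Phc2*, likewise of PRC1 and near the border, went the other way, at -0.268, 0.430 and 0.415, as did 3.82% of all genes between myoblasts and myotubes. The largest increases of PC1 between myoblasts and AraC-treated myotubes were those of *Phf19* (1.30) and *Suz12* (1.27), both of PRC2, and *Pcgf1* (0.987), which all belonged to bins already in A. In scaled PC1 the largest increases were instead those of *Phc2* (0.62), *Rnf2* (0.39) and *Pcgf5* (0.21). Of 9 Trithorax genes 8 were in A in every condition, the exception being *Kmt2b* at -0.141, -0.308 and -0.228.

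Of 54 other homeobox genes of the same class (ANTP), in 42 bins, 28 were in A in myoblasts (59.8% of all protein-coding genes), 25 in myotubes (58.5%) and 26 after AraC (57.5%). *Evx1* and *Evx2*, which sit beside *Hoxa13* and *Hoxd13*, share the HoxA and HoxD bins and their values. Between myoblasts and myotubes 3 of the 54 genes went from A to B (5.13% of all genes): *Msx1*, *Msx3* and *Nkx6-3*. Between myoblasts and AraC-treated myotubes 4 did so (6.76% of all genes), *Bsx* being the 1 gene added between untreated and AraC-treated myotubes (2.97%). The 2 genes that had gone from B to A after AraC, against 4.41% of all genes from myoblasts and 1.93% from untreated myotubes, were *Evx2*, with HoxD, and *Dbx2*, at -0.356, -0.100 and 0.191. The largest increases of PC1 were those of *Gbx2* (1.50), *Hlx* (1.36) and *Barhl1* (1.25), all in A already in myoblasts, and the largest decreases those of *Tlx3* (-1.18), *Barx2* (-1.05) and *En1* (-0.773), all in B. On the scaled values *Evx2* had the largest increase of the 54 (0.82) and *Evx1* the largest decrease (-1.05), both through the Hox bins they sit in. The median PC1 of their 42 bins was 0.130, -0.0146 and 0.0681. The HoxB and HoxC bins stood well above that median.

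The Hox bins were not set apart by a tie to these homeobox genes. Over 37 such bins on other chromosomes the median coefficient of HoxD was 0.00814 in myoblasts, 0.0209 in myotubes and 0.0125 after AraC, each between its medians with all A bins (0.000416, -0.0103 and 0.0292) and all B bins (0.0122, 0.0223 and -0.0127). For HoxA, over 36 such bins, it was 0.0176, 0.00210 and 0.00265, below its median with all A bins of 0.0711, 0.0645 and 0.0418. The bins of the Trithorax genes were closer partners, with medians of 0.152, 0.115 and 0.0513 for HoxA, 0.190, 0.297 and 0.246 for HoxB, and 0.210, 0.430 and 0.321 for the *Hoxc13* side. The last 2 had medians with all A bins of 0.0772, 0.146 and 0.142 and of 0.0776, 0.191 and 0.168. Trithorax bins were mostly A bins themselves, as given above, with a median PC1 of 1.69, 2.93 and 2.29. For HoxB, partners at a scaled PC1 of 1 to 2 had medians of 0.146, 0.243 and 0.215. Those above 2 had 0.236, 0.401 and 0.345. The Trithorax medians of HoxB lay between these, and those of the *Hoxc13* side between its own. For HoxA they did so in myoblasts and myotubes and were below both after AraC. A tie beyond that of PC1 was not tested. The Polycomb bins gave no common direction: their medians were 0.122, 0.0885 and 0.0539 for HoxA, above its median with all A bins, but 0.0675, 0.0568 and 0.0696 for HoxB, below it. For the *Hoxc13* side they were 0.0732, 0.147 and 0.168. The cofactor bins had medians of 0.0379, 0.0378 and 0.0222 with HoxA and 0.0664, 0.106 and 0.0510 with HoxB, below those with all A bins. HoxD went against the other clusters here too in the first conditions, with a median over 8 Trithorax bins of -0.0174 in myoblasts and -0.0268 in myotubes. After AraC its median was above 0 like theirs, at 0.0239, against 0.0292 with all A bins. RNA levels were not analysed here, so that neither the activity of the Hox genes nor the identity of the cells was checked against transcripts.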

How the data were processed

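Hi-C libraries were made from 3 conditions of C2C12 cells, 2 replicates each, cut with HindIII. Reads were mapped and filtered with HiCUP, and the authors pooled the replicates and computed with HOMER, per the labels and methods, a matrix of 500 kb bins for each condition. The deposited values are scores, namely HOMER's correlation coefficients between the distance-normalised contact profiles of bins. The labels give no version of HOMER. The labels name both mm10 and a human build, and the last bins of 19 of 19 autosomes fitted the lengths of GRCm38. The number of reads behind a coefficient is not in the values, so its depth and counting error are unknown. Of the bins, 5272 were used and 183 of chromosomes Y and M were not. No column belonged to an unmapped sample.

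PC1 was computed from each within-chromosome block with centred columns, and its sign was set so that it increased with the density of protein-coding TSS (GENCODE). Scaled PC1 is PC1 over its SD across the 4727 autosomal bins. Profile r is Pearson's r between conditions of a bin's coefficients with the other bins of its chromosome. All 38 Hox genes were placed in bins. The members and the lists of related genes were chosen with earlier results of these data known. Genes named were the Hox genes, the genes of Hox bins and adjacent bins, those of the 3 strongest partner bins on other chromosomes per condition, and, from each list, those that changed compartment and the 3 with the largest increase and decrease of PC1. Genes of bins further out, such as Ttn, and the genes with the largest scaled differences were named after their values were seen. Alternatives were uncentred columns, partner bins of other autosomes or of odd or even number, bins shifted by 1, PC1 over its SD or as a rank, Spearman's coefficient, omission of 2 Mb around a bin, 1 bin per cluster, coefficients over their SD, omission of a cluster, and omission of bins in the lowest 20% of absolute PC1. Some values of the named genes are not reported here. The steps were checked on simulated data. Calculations ran in Python 3.11.15 with SciPy 1.17.1 and NumPy 2.4.6, and plots were drawn with Matplotlib 3.10.9. Sequences were taken from RefSeq (GRCm38.p6).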

Additional observations from a re-analysis of the deposited data

How the results depend on the processing

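The 15 summary values were recomputed under 81 alternatives in all, of which 61 gave a value within 1.5 times, 20 a value further away or on another scale, and 0 a reversed one. A count cannot fall below 0, and each value was compared by itself. The 0 reversed values thus say nothing about the order of the conditions. The median profile correlation was that of the *Hoxc4* bin in each comparison of the main setting, so it did not register HoxD. The count of Hox bins that changed compartment rested on HoxD, whose PC1 was near 0 in myotubes and -0.143 in myoblasts. With odd-numbered partner bins alone it was 1 instead of 0 between myoblasts and myotubes and 0 instead of 1 between untreated and AraC-treated myotubes. Without bins in the lowest 20% of absolute PC1, an alternative chosen after seeing the data, it was 0 instead of 1 in both comparisons with AraC-treated myotubes. The count of bins with a higher PC1 depended on the scale: by rank on the chromosome it was 1 instead of 4 for AraC-treated myotubes against myoblasts, and for AraC-treated against untreated myotubes it was 2 instead of 1, both by rank and by PC1 over its SD. Divided by the SD of all coefficients between autosomes, the mean over the 9 pairs of Hox bins was 1.69 in myoblasts, 1.15 in myotubes and 1.52 after AraC, so that myoblasts were highest, whereas they were lowest in the undivided means. The undivided mean also depended on the bins taken. With bins shifted up by 1 it was 0.0250 in myoblasts, 0.0181 in myotubes and 0.0540 after AraC, and without HoxB 0.0427, 0.0200 and 0.0418. Without HoxD it was 0.137 in myoblasts and 0.20 in myotubes, and without HoxC 0.0482 in myotubes and 0.0699 after AraC. No paired analysis was possible because the replicates were pooled before deposit, and for the same reason no replicate could be left out. Reads per coefficient are unknown, so that small coefficients, such as those of HoxD with HoxA, have no stated precision.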
